A study of Mus musculus with 12 samples.

Results

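The comparison described here set 6 islet libraries against 6 spleen libraries of insulin-reactive CD4 T effector cells, with the 2 libraries of a mouse taken as a pair. All 12 libraries of the series entered, so 6 of 6 mice contributed a pair, and 1 tissue effect was estimated over both origins of the cells. Of 24374 genes, 10081 reached 1 FPKM (fragments per kilobase of transcript, scaled to the mapped fragments of the library) in at least 3 libraries and were tested. The question was which T cell genes reached the threshold over 6 pairs that did not reach it in the 3 pairs of either origin. Of 341 genes on 14 T cell lists 316 were tested, and 28 of these formed that class.

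The islet libraries and the spleen libraries each held 3 libraries of Y16A origin and 3 of WT origin. Y16A origin cells came from female NOD.InsY16A Tg donors and WT origin cells from female NOD donors, the inbred strain that develops autoimmune diabetes. All donors were 6 to 8 weeks old and had been immunised with Insulin C19A. Their splenocytes were cultured for 2 weeks with 10 µM peptide, CD4 T cells were purified magnetically to over 95% with under 1% Foxp3+ cells, and 5 M cells went into female NOD.scid recipients of 8 to 10 weeks, which lack T and B cells of their own but keep myeloid and NK lineage cells. Every transferred cell had therefore been through the same immunisation, culture and transfer, and no group of untransferred T cells was compared. The labels name no sort after recovery from the recipients, and the titles call the islet libraries pancreas. The genotype entry gives NOD for each islet and NOD.Y16A for each spleen library, against the titles and the design text, which were followed. Nothing says how the 3 recipients of an origin related to its donors, so p-values measure the spread between these recipients.

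A CD4 T cell that meets its antigen signals through the T cell receptor and its CD3 chains to calcium, ERK and NF-kappaB pathways. NFAT, AP-1 and NF-kappaB factors then switch on early genes and cytokines, while RNA-binding proteins of the Zfp36 family and dual specificity phosphatases limit the response. Cells that recirculate through lymphoid organs hold a different programme, in which Klf2 keeps the egress receptor S1pr1 expressed.

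Depth was estimated from the steps of low FPKM values at 5.37 to 8.26 M mapped fragments in islet libraries and 4.40 to 7.82 M in spleen libraries. A transcript of 1500 bases with 3 fragments would then stand at 0.242 to 0.455 FPKM, so low values rest on few fragments. Marker lists of other cells were set beside those of CD4 T cells. Summed acinar and duct markers (29 genes) ran from 1802 to 6558 FPKM in islet libraries and 3.9 to 12.6 FPKM in spleen libraries, with 24 of 25 tested members called higher in islet. Endocrine markers (17 genes) ran from 5.4 to 1087 FPKM in islet libraries and 0.5 to 8.9 FPKM in spleen libraries (1 of 7 higher). Neutrophil markers (12 genes) summed to 0.8 to 24 FPKM in islet and 95.1 to 244.7 FPKM in spleen libraries, with 4 of 7 tested members called lower in islet. Erythroid and platelet markers (14 genes) summed to 6.2 to 124.3 FPKM in islet and 125.8 to 2386 FPKM in spleen libraries (4 of 9 lower). Macrophage and monocyte markers (15 genes) summed to 121.7 to 263.9 FPKM in islet and 273.1 to 725.3 FPKM in spleen libraries (2 of 11 lower, Tyrobp and Fcer1g). The mean log2(FPKM + 1) of these 15 genes overlapped, at 1.8 to 2.34 in islet and 2.26 to 2.72 in spleen libraries. NK and CD8 T cell markers (9 genes) summed to 10.1 to 29.2 FPKM in islet and 30.1 to 84.9 FPKM in spleen libraries (1 of 4 lower, Tyrobp). Tyrobp stands on both lists, with 0 to 5.82 FPKM in islet and 17.2 to 70.0 FPKM in spleen libraries. The other tested NK and CD8 T cell markers overlapped and were not called. They were Cd8a (0 to 7.66 FPKM in islet, 0 to 1.87 FPKM in spleen), Cd8b1 (0 to 13.8 and 0 to 1.56 FPKM) and Eomes (0.365 to 22.7 and 1.62 to 12.9 FPKM). Cd8b1 was higher in islet in 5 of 6 mice and Eomes lower in 5 of 6. The sums of the other lists overlapped between the tissues: dendritic cell markers (9 genes, 69.7 to 140.1 FPKM in islet, 65.7 to 169.9 FPKM in spleen, 0 of 3 called), B cell markers (8 genes, 0.4 to 8.4 FPKM in islet, 4.2 to 9.1 FPKM in spleen, 1 of 2 lower) and endothelial and stromal markers (12 genes, 3.8 to 32.7 FPKM in islet, 2 to 7.3 FPKM in spleen, 0 of 4 called). The B cell marker called was Cd22, with 0 to 0.572 FPKM in islet and 1.14 to 5.99 FPKM in spleen libraries, lower in 6 of 6 mice. Among defining markers S100a9, Camp, Ltf and Retnlg were listed at 0 in all islet libraries and Cela2a, Cpa1 and Iapp in all spleen libraries. Elane and Pax5 were at 0 in all libraries of both. Other neutrophil markers appeared in islet libraries, such as Lcn2 (0 to 22.4 FPKM in islet, 0 to 8.74 FPKM in spleen) and Ly6g (0 to 1.90 and 0 to 6.23 FPKM). Summed CD4 T cell markers (7 genes) were 1903 to 3015 FPKM in islet and 1310 to 2022 FPKM in spleen libraries (2 of 7 higher, Cd3g and Cd3d). The part of these cells in the gene values below was not tested except where a value is given, and in bulk RNA fewer cells of a type cannot be told apart from less RNA per cell.

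Over the 6 pairs limma called 288 of 10081 genes (2.86%) at an adjusted p under 0.05, 236 higher (2.34%) and 52 lower (0.516%) in islet. Log2 changes below are differences of log2(FPKM + 1), islet minus spleen, given less 0.245, the median change among genes averaging above 5 FPKM (less 0.326 within Y16A origin and 0.155 within WT origin). They understate the change of low genes, and the p-values belong to the fit without that subtraction. The balance of directions depended on scaling: with each library centred on its median the calls were 136 higher and 81 lower, with quantile normalization 129 and 93, and with pancreatic genes removed and libraries rescaled 78 and 90. Without mouse Y16A-1 the count was 177 and without mouse Y16A-2 it was 176. All 6 pairs pointed 1 way for 855 genes (8.48%), and for 199 genes (1.97%) no islet library fell within the range of the spleen libraries and all were on 1 side of it.

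Of the 316 T cell genes 84 were called (26.6%), 70 higher and 14 lower in islet, and the median log2 change of the 316 was 0.11, against -0.08 over all genes tested. The lists were chosen with earlier results known, so this share supports nothing on its own. Of the 84, 56 were also called within an origin, among them Ifng, the cytokine of type 1 helper cells, with 120.0 to 303.0 FPKM in islet libraries (median 149) and 3.84 to 13.6 FPKM in spleen libraries (median 8.49). The other 28, or 8.86% of the T cell genes tested, were called in neither the Y16A nor the WT origin, by a fit with the mouse as block or by a fit of 4 group means. Over all genes 148 (1.47%) were of this kind, 122 higher (1.21%) and 26 lower (0.258%). For comparison, the blocked fit called 133 genes (1.32%) in Y16A origin and 90 (0.893%) in WT origin, and the fit of group means 117 (1.16%) in Y16A origin and 82 (0.813%) in WT origin.

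**Figure D1:**
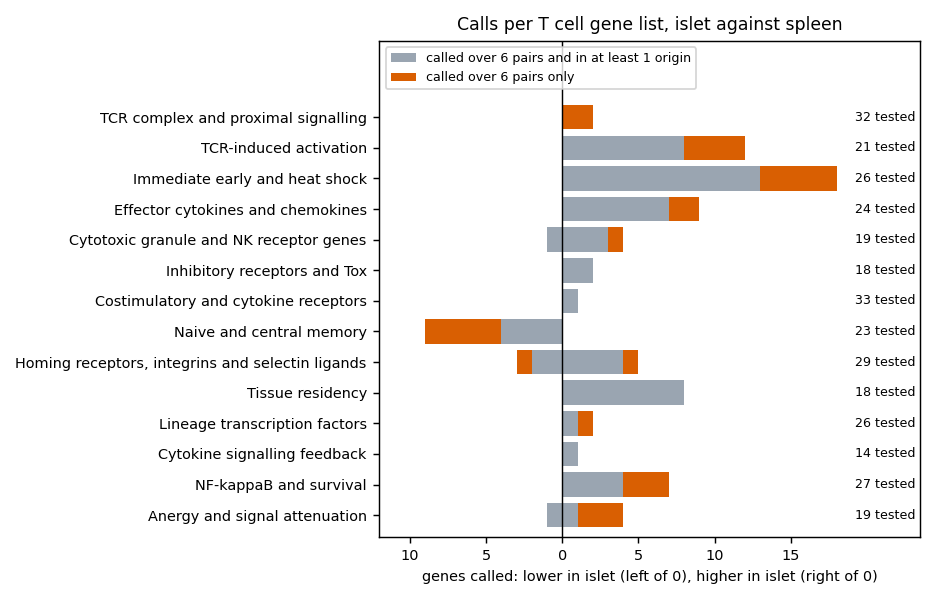
Number of genes called at an adjusted p under 0.05 in each of 14 T cell lists, higher in islet to the right of 0 and lower to the left, with genes called over 6 pairs only in orange and those also called within at least 1 origin in grey; a gene can stand on more than 1 list. Naive and central memory genes held 5 of the 6 falls called over 6 pairs only, and immediate early and heat shock genes held 5 of the 22 rises.

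The 28 genes split into 22 that rose and 6 that fell in islet. Their median absolute log2 change was 1.24, against 2.02 for the 56 genes called within an origin too, an order that follows from how the classes were defined. Within the origins all 28 had the sign of the pooled estimate. The median log2 change of the 22 rises was 1.12 in Y16A origin and 1.15 in WT origin, and that of the 6 falls was -1.67 in Y16A origin and -1.33 in WT origin. Within the origins their smallest adjusted p was 0.0558 in Y16A origin and 0.0589 in WT origin. The difference between the origins was tested as an interaction: limma called 0 of 10081 genes (0%), with 539 at an unadjusted p under 0.05 and a smallest adjusted p of 0.413, and the fit of 4 group means called 0 as well. Among the 28 the smallest unadjusted interaction p was 0.144, which does not show that the origins were alike. In 27 of the 28 the islet value lay on the same side of the spleen value in all 6 mice, which gives the smallest exact two-sided sign-flip permutation p that 6 pairs allow, 0.03125. The genes were chosen by a call over the same pairs, so this describes them and adds no support. The other was Klf2, lower in 5 of 6 pairs (exact p 0.0625). For 15 of the 28 all islet libraries stood on 1 side of all spleen libraries.

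**Figure D2:**
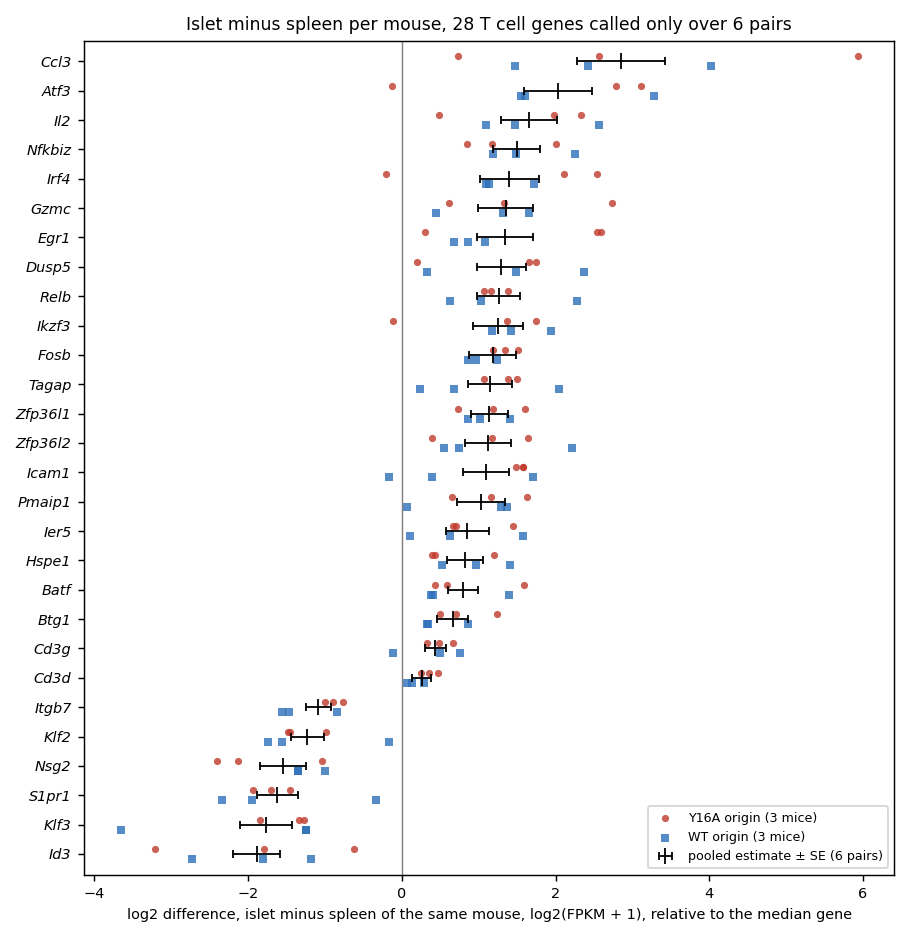
Islet minus spleen difference of log2(FPKM + 1) for each mouse, less the 0.245 of the median gene, for the 28 T cell genes called over 6 pairs only; red circles are Y16A origin, blue squares WT origin, and black bars the pooled estimate ± SE. On this scale 23 of the 28 lie on 1 side of 0 in all 6 mice, and Atf3, Irf4, Ikzf3, Icam1 and Cd3g have 1 mouse below 0.

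The pooled pairs added 3 genes known to dampen activation, Zfp36l1, Zfp36l2 and Dusp5. Zfp36l1, an RNA-binding protein that brings AU-rich mRNAs to decay, had 18.5 to 40.7 FPKM in islet libraries (median 29.3) and 5.20 to 16.2 FPKM in spleen libraries (median 10.9). Every islet value lay above every spleen value, with a log2 change of 1.14 (SE 0.24, adjusted p 0.00553). Within the origins the log2 change was 1.09 in Y16A (adjusted p 0.0910) and 1.19 in WT (adjusted p 0.148). Its relative Zfp36l2 had 15.5 to 41.7 FPKM in islet libraries (median 21.2) and 5.65 to 13.1 FPKM in spleen libraries (median 8.19), again without overlap (log2 change 1.12, SE 0.30, adjusted p 0.0230). Dusp5, a nuclear phosphatase of ERK, had 13.2 to 39.9 FPKM in islet libraries (median 25.1) and 3.29 to 19.0 FPKM in spleen libraries (median 7.52). The groups overlapped, although each mouse was higher in islet (log2 change 1.30, SE 0.32, adjusted p 0.0189). Zfp36l1 was called in all 17 alternatives and with any 1 mouse left out. Zfp36l2 and Dusp5 were called in 10 of 17 each, and not without WT-3, Y16A-1 or Y16A-2 (adjusted p 0.0657 to 0.0889). Of the 19 tested genes of anergy and signal attenuation 4 rose and 1 fell, Dtx1, a ubiquitin ligase linked to T cell anergy, which was already called within an origin. The list's median log2 change was -0.05.

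Il2, the T cell growth factor, was a low transcript that rose. It had 1.53 to 9.13 FPKM in islet libraries (median 4.52) and 0 to 2.06 FPKM in spleen libraries, where the median was 0. The ranges overlapped, while islet was higher in 6 of 6 mice (log2 change 1.65, SE 0.36, adjusted p 0.0101). It passed in all 16 alternatives in which it was tested. Within the origins its adjusted p was 0.151 in Y16A and 0.150 in WT. Ccl3, an inflammatory chemokine, had the largest change of the 28, with 35.9 to 151 FPKM in islet libraries (median 51.8) and 0 to 23.0 FPKM in spleen libraries (median 10.9). Islet lay above spleen throughout (log2 change 2.86, SE 0.57, adjusted p 0.0177), but the single pairs ranged widely, and Ccl3 was not called without WT-1 or Y16A-3 (adjusted p 0.0663 to 0.0717). Macrophages also express Ccl3, and what they contributed to its values was not tested. The summed macrophage markers were 121.7 to 263.9 FPKM in islet and 273.1 to 725.3 FPKM in spleen libraries. Of the 11 tested members only Tyrobp and Fcer1g were called lower, and 0 were called higher. Fcer1g alone had 13.3 to 134 FPKM in islet and 78.4 to 528 FPKM in spleen libraries. The mean log2(FPKM + 1) of the 15 genes overlapped, at 1.8 to 2.34 in islet and 2.26 to 2.72 in spleen libraries. Lyz1 and Cd14 were higher in islet in 5 of 6 mice and Apoe in 4. Cd68, Ctss, C1qb and C1qc were lower in 5 of 6, and C1qa and Lyz2 in 4. Of 24 tested effector cytokines and chemokines 9 rose and 0 fell (median log2 change 1.06), 7 of them also within an origin.

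The promoters of 2 genes that rose, Zfp36l1 and Il2, and of 2 that fell, Id3 and Itgb7, are printed because all 4 kept their call with any 1 mouse left out and stand for both directions. Each is the 250 bases before the gene's start in RefSeq on GRCm38.p6, the C57BL/6J reference, whereas these cells are NOD. They lie at chr12:80113014-80113263 (Zfp36l1, minus strand), chr3:37125955-37126204 (Il2, minus strand), chr4:136143572-136143821 (Id3, plus strand) and chr15:102231936-102232185 (Itgb7, minus strand), and are written 5′ to 3′ on the gene's strand. Capitals mark TGANTCA, the AP-1 motif, GGAAA, the core bound by NFAT, and CACCC, the box of Klf factors, on either strand.
Zfp36l1: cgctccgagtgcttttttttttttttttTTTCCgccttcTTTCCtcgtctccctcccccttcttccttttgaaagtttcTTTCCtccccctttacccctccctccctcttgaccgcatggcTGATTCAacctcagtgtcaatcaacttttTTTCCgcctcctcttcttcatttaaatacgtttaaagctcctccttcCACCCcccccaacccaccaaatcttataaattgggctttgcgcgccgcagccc
Il2: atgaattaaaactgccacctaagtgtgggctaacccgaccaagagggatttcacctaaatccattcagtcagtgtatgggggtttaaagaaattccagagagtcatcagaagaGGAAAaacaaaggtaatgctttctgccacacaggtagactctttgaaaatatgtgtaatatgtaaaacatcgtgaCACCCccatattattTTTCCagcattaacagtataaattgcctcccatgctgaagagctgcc
Id3: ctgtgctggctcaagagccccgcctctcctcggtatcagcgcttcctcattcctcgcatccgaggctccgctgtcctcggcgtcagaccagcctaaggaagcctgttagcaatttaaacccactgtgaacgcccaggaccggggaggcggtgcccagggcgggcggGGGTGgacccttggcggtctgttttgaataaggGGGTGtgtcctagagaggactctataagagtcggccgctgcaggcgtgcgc
Itgb7: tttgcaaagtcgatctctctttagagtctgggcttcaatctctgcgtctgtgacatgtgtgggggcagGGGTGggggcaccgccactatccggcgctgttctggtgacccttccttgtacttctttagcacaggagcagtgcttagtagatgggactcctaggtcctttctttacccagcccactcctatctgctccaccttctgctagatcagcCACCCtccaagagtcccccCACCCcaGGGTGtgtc
The windows of Zfp36l1 and Il2 hold 4 and 2 GGAAA matches and 1 CACCC match each, and that of Zfp36l1 holds 1 TGANTCA match. Those of Id3 and Itgb7 hold 0 GGAAA and 0 TGANTCA matches, with 2 and 4 CACCC matches. The printed windows do not stand for a split by direction. Batf and Atf3, rises that also kept their call with any 1 mouse left out, are not printed. Batf holds 2 GGAAA and 0 CACCC matches, and Atf3 0 GGAAA and 3 CACCC matches. Among the other falls GGAAA was in Klf2 and Nsg2 but not in Klf3. For 21 of the 28 genes a RefSeq promoter was examined. The search of the 28 left out 1 chromosome, which the 27025 promoters of the comparison kept. GGAAA was in 13 of 21, against 55.6% of 27025 promoters, CACCC in 14 of 21, against 51.3%, and TGANTCA in 1 of 21, against 6.87%. The TCF core CTTTGA was in 3 of 21 (14% of all), the heat shock motif TTCNNGAA in 1, Hspe1 (7.1% of all), and the E-box CACGTG in 0 (6.05% of all). A match describes letters and not binding.

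Among genes induced by the T cell receptor, 12 of 21 tested rose and 0 fell, with a median log2 change of 1.12. The pooled pairs added 4 of the 12. Batf, an AP-1 family factor that works with Irf4 in effector T cells, had 140 to 271 FPKM in islet libraries (median 217) and 44.0 to 149 FPKM in spleen libraries (median 123). The groups overlapped narrowly, each mouse was higher in islet, and the log2 change was 0.80 (SE 0.20, adjusted p 0.0101). Batf kept its call with any 1 mouse left out, but not with quantile normalization (adjusted p 0.133), rescaling (0.0976), plain empirical Bayes (0.126) or no filter (0.0661). Irf4 itself, whose level follows the strength of receptor signalling, was low, with 0.939 to 6.47 FPKM in islet libraries (median 2.71) and 0 to 0.880 FPKM in spleen libraries (median 0.320). Its islet values lay above all spleen values (log2 change 1.40, SE 0.38, adjusted p 0.0355). Tagap, a GTPase activating protein of activated T cells, had 17.2 to 33.9 FPKM in islet libraries (median 22.3) and 5.79 to 12.0 FPKM in spleen libraries (median 8.51), without overlap (log2 change 1.15, SE 0.29, adjusted p 0.0170). Egr1, a zinc finger factor of the ERK pathway, had 8.24 to 29.7 FPKM in islet libraries (median 15.2) and 2.20 to 7.17 FPKM in spleen libraries (median 4.20), also apart. Its pooled log2 change was 1.34 (SE 0.36, adjusted p 0.0297), made up of 1.73 in Y16A and 0.97 in WT origin, a difference that did not pass. Tagap was not called without WT-3, Y16A-1 or Y16A-2 and Egr1 not without WT-3, Y16A-1 or Y16A-3, while Irf4 was called only when Y16A-2 was the mouse left out (adjusted p of the lost calls 0.0627 to 0.123). Nr4a1, a nuclear receptor used as a reporter of receptor signalling, was called in both origins already (35.7 to 144 FPKM in islet, 1.28 to 9.92 FPKM in spleen libraries).

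Immediate early and heat shock genes held the most calls of any T cell list, 18 of 26 tested higher and 0 lower (median log2 change 1.15). The 5 added by pooling were smaller than members such as the chaperone Hspa1a, which had 78.5 to 300.0 FPKM in islet and 0.104 to 1.83 FPKM in spleen libraries and shares reads with its near copy Hspa1b. Atf3, a stress-induced factor of the ATF family, had 1.66 to 10.5 FPKM in islet libraries (median 4.87) and was listed at 0 in all spleen libraries except Y16A-2, with 1.46 FPKM. In that mouse the islet value was 1.66 FPKM, so 1 pair carried almost no difference (pooled log2 change 2.03, SE 0.44, adjusted p 0.0117). Fosb, an AP-1 subunit, was near the floor, at 1.15 to 4.37 FPKM in islet libraries (median 1.75) and 0 to 0.585 FPKM in spleen libraries (median 0), without overlap and with a log2 change of 1.18 (SE 0.30, adjusted p 0.0210). Hspe1, the mitochondrial co-chaperonin, had 29.1 to 65.0 FPKM in islet libraries (median 41.0) and 16.9 to 21.9 FPKM in spleen libraries (median 18.8), again apart (log2 change 0.82, SE 0.23, adjusted p 0.0237). The growth-restraining Btg1 had 37.0 to 110 FPKM in islet libraries (median 74.2) and 24.6 to 42.2 FPKM in spleen libraries (median 38.2), overlapping (log2 change 0.66, SE 0.20, adjusted p 0.0269). Ier5, an early response gene, had 11.1 to 34.3 FPKM in islet libraries (median 22.6) and 5.65 to 12.9 FPKM in spleen libraries (median 10.5). The groups overlapped, and it passed by the narrowest margin (log2 change 0.85, SE 0.28, adjusted p 0.04997) and not without the mouse block (adjusted p 0.0554). Atf3 kept its call with any 1 mouse left out but not without the filter on low values (adjusted p 0.0733). Fosb and Btg1 lost it without WT-3 or any Y16A mouse, Hspe1 without WT-2, WT-3 or Y16A-2, and Ier5 without any mouse but WT-2 (adjusted p 0.0550 to 0.171).

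NF-kappaB and survival genes followed the same direction, with 7 of 27 tested higher and 0 lower and a median log2 change of 0.29. Nfkbiz, the atypical nuclear inhibitor family member IkappaB zeta, had 7.78 to 14.4 FPKM in islet libraries (median 11.0) and 0.758 to 4.98 FPKM in spleen libraries (median 2.70). No values overlapped, and Nfkbiz was called in all 17 alternatives (log2 change 1.49, SE 0.31, adjusted p 0.00663). Relb, the transcription factor of the noncanonical pathway, had 14.6 to 27.7 FPKM in islet libraries (median 19.8) and 1.70 to 11.8 FPKM in spleen libraries (median 7.40), likewise apart (log2 change 1.26, SE 0.28, adjusted p 0.00966). Pmaip1, the BH3-only protein Noxa, had 5.12 to 16.3 FPKM in islet libraries (median 13.1) and 3.06 to 4.90 FPKM in spleen libraries (median 4.18), with a narrow gap (log2 change 1.03, SE 0.31, adjusted p 0.0410). Relb kept its call with any 1 mouse left out but not after rescaling (adjusted p 0.0660) or with the highest transcript per gene (0.562), while Pmaip1 kept it only without WT-1 (other fits 0.0791 to 0.142). Tnfaip3, an inhibitor of NF-kappaB signalling, was called within an origin already (log2 change 3.72).

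**Figure D3:**
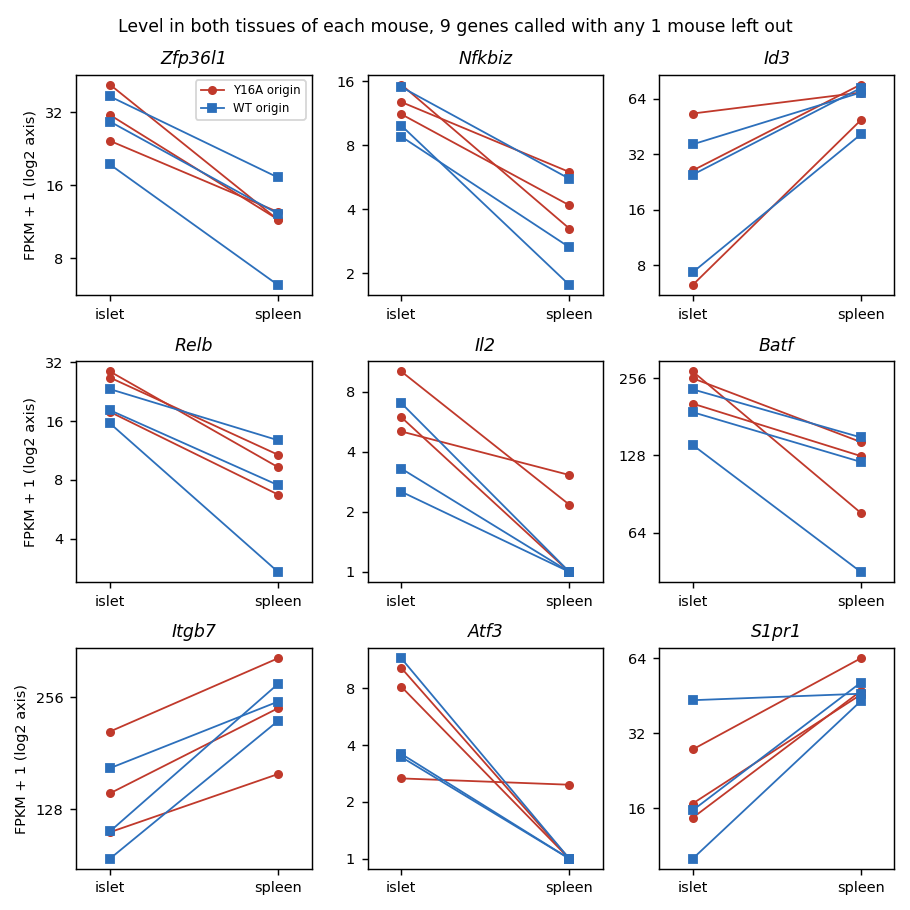
FPKM + 1 on a log2 axis in islet (left) and spleen (right) of each mouse, 1 line per mouse, for the 9 of 28 genes that were called with any 1 mouse left out; red circles are Y16A origin and blue squares WT origin. Zfp36l1, Nfkbiz, Relb, Il2, Batf and Atf3 are higher in islet, and Id3, Itgb7 and S1pr1 lower in islet, in all 6 mice, with the flattest lines in S1pr1 for 1 WT mouse and in Atf3 for mouse Y16A-2.

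Genes of naive and recirculating cells made up 5 of the 6 falls. Id3, an inhibitor of E protein transcription factors, had 5.26 to 52.1 FPKM in islet libraries (median 24.4) and 39.9 to 75.2 FPKM in spleen libraries (median 68.0). The groups overlapped, yet each mouse was lower in islet (log2 change -1.89, SE 0.31, adjusted p 0.00966). S1pr1, the receptor for sphingosine 1-phosphate that guides egress, had 9.06 to 42.5 FPKM in islet libraries (median 15.2) and 42.1 to 63.0 FPKM in spleen libraries (median 45.7), overlapping slightly (log2 change -1.62, SE 0.27, adjusted p 0.0118). Klf2, its activator, had 43.1 to 117 FPKM in islet libraries (median 64.4) and 108 to 177 FPKM in spleen libraries (median 134), overlapping (log2 change -1.23, SE 0.21, adjusted p 0.0228). Klf3, a related repressor, had 1.45 to 16.1 FPKM in islet libraries (median 11.2) and 12.8 to 39.3 FPKM in spleen libraries (median 25.6), and Nsg2, a gene of this list, 2.53 to 15.997 FPKM in islet (median 4.80) and 6.71 to 27.7 FPKM in spleen libraries (median 12.0). Both overlapped and were lower in 6 of 6 mice (log2 changes -1.77 and -1.55, adjusted p 0.0250 and 0.0322). Of 23 tested genes of the list 9 fell and 0 rose (median log2 change -1.18), the others called within an origin already, such as the homing receptor Ccr7 (3.84 to 14.9 FPKM in islet, 43.3 to 61.0 FPKM in spleen libraries).

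The remaining fall was Itgb7, the integrin chain that pairs with alpha 4 in gut homing. It had 93.3 to 206 FPKM in islet libraries (median 126) and 158 to 325 FPKM in spleen libraries (median 243), overlapping between mice but lower in islet in each (log2 change -1.09, SE 0.16, adjusted p 0.0108). Its partner Itga4 had 1.97 to 5.54 FPKM in islet libraries (median 3.99) and 0.640 to 3.45 FPKM in spleen libraries (median 2.38) and did not pass (log2 change 0.36, SE 0.33, adjusted p 0.410). Since falls are tested before the median shift is removed, the 6 falls were further from 0 once each library was centred: all 6 were called with median centring, quantile normalization and rescaling. By contrast 0 of the 6 were called with plain empirical Bayes, where Id3 had an adjusted p of 0.0583, Itgb7 of 0.171 and S1pr1 of 0.0630. With no filter 1 was called, Itgb7, and with the highest transcript per gene 3. Without the mouse block Id3, Itgb7, Klf3 and Nsg2 were not called (adjusted p 0.0505 to 0.134). With 1 mouse left out Id3, S1pr1 and Itgb7 stayed called. Klf3 was lost without Y16A-1 or Y16A-2, Klf2 with any mouse out but WT-3, and Nsg2 with any mouse out (adjusted p 0.0509 to 0.126).

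CD3 chains of the receptor complex itself were called, with small changes. Cd3g had 799 to 1079 FPKM in islet libraries (median 868) and 400.3 to 733 FPKM in spleen libraries (median 598), and Cd3d 399 to 646 FPKM in islet (median 478) and 275 to 394 FPKM in spleen libraries (median 361). Neither gene's groups overlapped (log2 changes 0.44 and 0.26, adjusted p 0.0118 and 0.0456). These are small beside the other members, the shift already subtracted being 0.245, and neither gene was called with quantile normalization (adjusted p 0.482 and 0.693) or after rescaling without pancreatic genes (0.161 and 0.666). Cd3d was not called with median centring (0.282) or without the block (0.127) either, nor with any mouse but WT-2 left out (0.0929 to 0.171), and Cd3g was not without Y16A-1 or Y16A-2 (0.0507 to 0.0523). Another chain, Cd3e, had 266 to 501 FPKM in islet libraries (median 359) and 204 to 299 FPKM in spleen libraries (median 269) and did not pass (log2 change 0.22, adjusted p 0.133), nor did Cd4 (64.1 to 129 FPKM in islet, 66.0 to 117 FPKM in spleen libraries, adjusted p 0.777). These 2 were the only calls among 32 tested genes of the complex and its proximal signalling, whose median log2 change was -0.09.

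In 3 further lists the pooled pairs added 1 rise each. Homing receptors, integrins and selectin ligands had 5 of 29 tested genes higher and 3 lower (median log2 change -0.24), cytotoxic granule and NK receptor genes 4 of 19 higher and 1 lower (-0.11), and lineage transcription factors 2 of 26 higher and 0 lower (-0.01). Icam1, the ligand of LFA-1, had 12.1 to 46.8 FPKM in islet libraries (median 28.2) and 6.86 to 12.6 FPKM in spleen libraries (median 9.35), with a slight overlap (log2 change 1.09, SE 0.30, adjusted p 0.0299). Ikzf3, the zinc finger factor Aiolos, had 5.84 to 18.4 FPKM in islet libraries (median 12.5) and 0.510 to 8.23 FPKM in spleen libraries (median 4.01), overlapping (log2 change 1.25, SE 0.33, adjusted p 0.0247). Gzmc, granzyme C, was low, with 0.612 to 6.91 FPKM in islet libraries (median 2.63) and 0 to 0.547 FPKM in spleen libraries (median 0), values close to the level of 3 fragments (log2 change 1.35, SE 0.36, adjusted p 0.0297). Icam1 lost its call without WT-3 or any Y16A mouse, Ikzf3 with any mouse out but Y16A-3, and Gzmc without WT-1, WT-2, Y16A-1 or Y16A-2 (adjusted p 0.0586 to 0.109). Of the other granule genes Nkg7, a granule membrane protein, was called within an origin already, with 1569 to 2561 FPKM in islet libraries and 650.4 to 1261 FPKM in spleen libraries, without overlap (log2 change 0.61, SE 0.12, adjusted p 0.000744, but 0.160 with plain empirical Bayes). Gzmb did not pass (19.0 to 69.6 FPKM in islet, 28.9 to 70.1 FPKM in spleen libraries, adjusted p 0.310), and neither did perforin, Prf1 (adjusted p 0.852).

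Pooling added no gene to 4 lists. Inhibitory receptors and Tox had 2 of 18 higher, Ctla4 and Pdcd1, both called within an origin (Pdcd1 60.4 to 115 FPKM in islet, 15.0 to 40.6 FPKM in spleen libraries). Tigit came nearest to the threshold among the other genes of interest of that list, with 9.76 to 47.6 FPKM in islet libraries (median 17.5) and 2.01 to 12.0 FPKM in spleen libraries (median 7.64), higher in 6 of 6 mice (log2 change 1.20, SE 0.38, adjusted p 0.0648). It was called without WT-2 (adjusted p 0.0363) or Y16A-2 (0.0460) and among genes with a mean of at least 5 FPKM (0.0268), within a range of 0.0268 to 0.238 over its alternatives. Lag3 (adjusted p 0.186), Havcr2 (0.749) and Tox (0.905) did not pass. Tissue residency genes had 8 of 18 higher, each called within an origin, among them Rgs1 (160 to 366 FPKM in islet, 1.14 to 24.9 FPKM in spleen libraries), while Itgae, the CD103 chain, stayed low in both (0.661 to 3.57 FPKM in islet, 0 to 4.16 FPKM in spleen libraries, adjusted p 0.889). Costimulatory and cytokine receptors had 1 of 33 higher, Tnfrsf4, and cytokine signalling feedback 1 of 14, Tgif1. The first share, 3.03%, was near the 2.86% called over all genes tested. Foxp3, which marks regulatory T cells, had 0 to 4.57 FPKM in islet libraries (median 1.42) and 0.445 to 7.80 FPKM in spleen libraries (median 3.13), lower in 6 of 6 mice without passing (log2 change -1.06, adjusted p 0.229).

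Pooling also ended calls. 3 T cell genes called within 1 origin by 1 of the 2 fits were not called over 6 pairs. Of the 59 T cell genes called within an origin 56 were also called over the pairs, against 140 of 173 over all genes. Gzma, granzyme A, had 21.3 to 89.3 FPKM in islet libraries and 36.4 to 115 FPKM in spleen libraries, with a log2 change of -1.77 in Y16A origin and -0.48 in WT origin (pooled adjusted p 0.0916, unadjusted interaction p 0.0211). It passed with quantile normalization (0.0271), after rescaling (0.0183) and with the filter on a mean of 5 FPKM (0.0419), within a range of 0.0183 to 0.280. Cd160, an inhibitory receptor, had 1.78 to 11.3 FPKM in islet and 0 to 2.10 FPKM in spleen libraries (log2 change 2.14 in Y16A and 0.71 in WT origin, pooled adjusted p 0.0899). Tnfsf11, the cytokine RANKL, had 6.65 to 16.9 FPKM in islet and 0.182 to 11.9 FPKM in spleen libraries (log2 change 0.39 in Y16A and 2.20 in WT origin, pooled adjusted p 0.0934). None of the 3 differed between origins after adjustment over all genes.

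Outside the T cell and marker lists, the 10 genes of this class with the smallest p and a mean of at least 5 FPKM all rose. Lilr4b, a receptor of the leukocyte immunoglobulin-like family, had 8.21 to 26.9 FPKM in islet libraries (median 14.6) and 0.456 to 6.55 FPKM in spleen libraries (median 3.66), without overlap (log2 change 1.70, SE 0.33, adjusted p 0.00421). Serpina3g, a protease inhibitor of activated T cells, had 31.0 to 89.1 FPKM in islet and 11.9 to 24.3 FPKM in spleen libraries (log2 change 1.08, adjusted p 0.00458), and Ehd1, an endocytic recycling protein, 6.56 to 18.8 FPKM in islet and 1.03 to 5.87 FPKM in spleen libraries (log2 change 1.44, adjusted p 0.00553). Both were apart in all 12 libraries, and Ehd1 passed in all 17 alternatives. Lilr4b and Serpina3g passed in 16 of 17 each. Lilr4b was not called with the highest transcript per gene (adjusted p 0.454), and Serpina3g not after rescaling without pancreatic genes (0.0551). A further 6 were abundant genes of small change. The respiratory chain genes Uqcrh and Ndufa2 had log2 changes of 0.57 and 0.64, the ribosomal genes Rps9 and Rpl41 of 0.56 and 0.35, the ribosome-bound scaffold Rack1 of 0.59 and the proteasome lid gene Sem1 of 0.53 (adjusted p 0.00319 to 0.00502). None of these 6 was called with quantile normalization, after rescaling without pancreatic genes or with plain empirical Bayes. Of the pathways, interferon gamma response had 2 of 21 genes higher, Psmb9 and B2m (log2 changes 0.46 and 0.45), cell cycle 1 of 26, the mitotic kinase Aurkb (1.60), and glycolysis 0 of 15, and these 3 genes were called in neither origin alone. The cell cycle share, 3.85%, was near the 2.86% called over all genes tested.

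The threshold passed through a dense stretch of T cell genes. Just inside lay Pmaip1 (adjusted p 0.0410), Cd3d (0.0456) and Ier5 (0.04997), and just outside Dusp6, a cytoplasmic ERK phosphatase (0.0500047, log2 change 1.24, higher in 5 of 6 mice), Entpd1, the ectonucleotidase CD39 (0.0506, log2 change 1.07), and Zfp36, a relative of Zfp36l1 (0.0567, log2 change 0.77). Of the 22 rises, 11 were called with median centring, 10 with quantile normalization and 5 after rescaling without pancreatic genes, against 6 of 6 falls with each. With plain empirical Bayes 9 rises and 0 falls were called, with no filter 6 rises and 1 fall, and with the highest transcript per gene 8 rises and 3 falls. Median centring ended the calls of Fosb, Hspe1, Ikzf3, Btg1, Egr1, Gzmc, Icam1, Irf4, Pmaip1, Cd3d and Ier5. The 5 rises called after rescaling were Zfp36l1, Nfkbiz, Il2, Atf3 and Fosb. All signs were kept in the 17 alternatives.

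**Figure D4:**
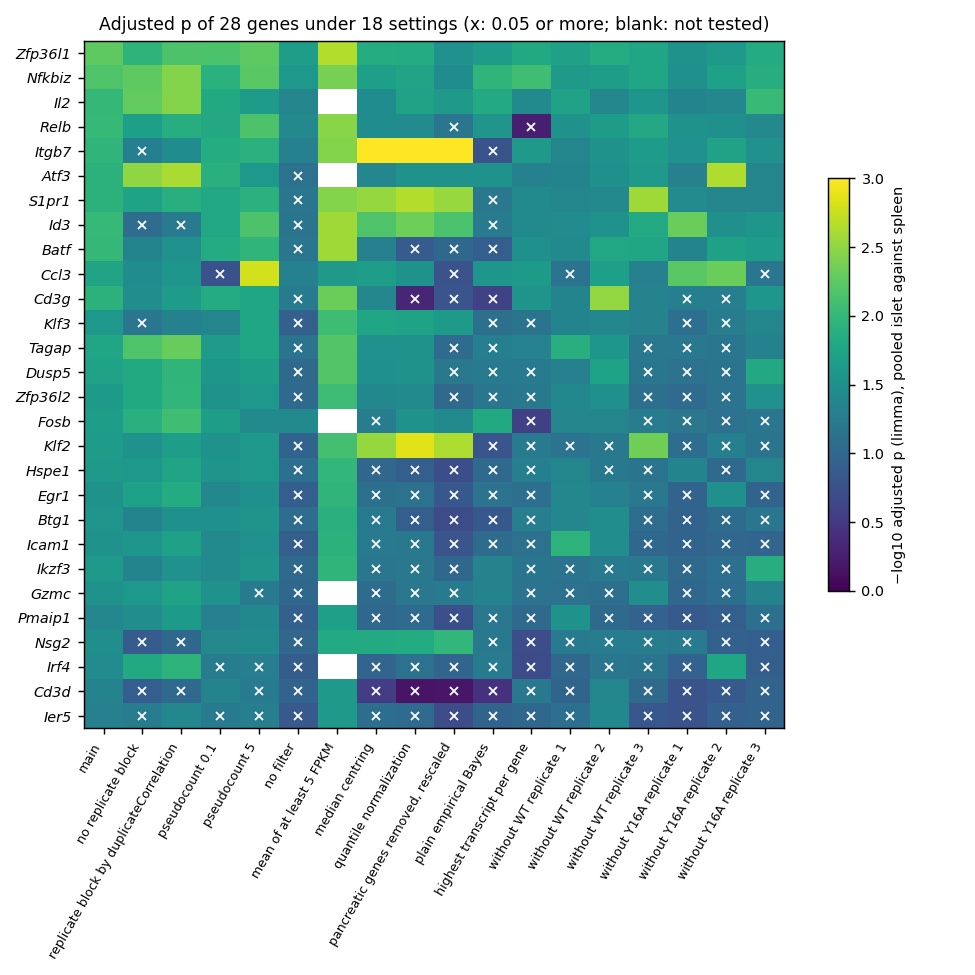
Adjusted p (as -log10, limma) of the 28 genes (rows) under the settings tried (columns), with a cross where a gene was not called and a blank where it was not tested. Zfp36l1, Nfkbiz and Il2 carry no cross, while Cd3d, Irf4 and Ier5 pass in 3 alternatives each.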

How the data were processed

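Per the submitters' processing notes, the authors used TopHat 1.0.0 and Cufflinks with mm9; the Cufflinks version is not given in the sources used here. The deposited matrix is in FPKM and has 36285 entries. RefSeq symbols were found for 36168 (99.68%), and entries of 1 symbol were added up to 24374 genes, 5645 of them 0 in every library. The authors' deposited table of islet Y16A against islet WT was not used. After the filter (1 FPKM or more in 3 or more libraries), log2(FPKM + 1) values went into limma 3.58.1 under R 4.3.3 (statmod 1.5.0), with intensity trend and robust empirical Bayes, mouse and tissue as terms and 5 residual degrees of freedom. Adjusted p values are Benjamini-Hochberg values over all genes. Origins were fitted with 1 tissue effect each (4 residual degrees of freedom) and as 4 group means without block. The standard error had a median of 0.195 among genes averaging above 50 FPKM. The scripts were tested on simulated data.

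Pairs come from the labels, since each mouse has 1 islet and 1 spleen title. Deviations of same-mouse libraries from their group means correlated at -0.033 to 0.073 over genes, and the consensus correlation was 0.07. Named genes were the largest changes, the T cell genes called over 6 pairs only, the 10 such genes with the smallest p outside the lists, and a set of genes of interest. Genes named outside these, such as those at the threshold, list members called within an origin, Cd160, Tnfsf11, Psmb9, B2m and Aurkb, were picked with their values in view. The class of genes, the lists and the tests were chosen with earlier results of these data known. Alternatives were the block, pseudocount, filter, scaling, empirical Bayes, the highest transcript per gene and each mouse left out. Trac and Zfp683 were not analysed here. Results for some genes are not reported here.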

Additional observations from a re-analysis of the deposited data

Results flagged for a closer look

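Among 196 groups of 6 libraries examined for a single library far from the rest, 19 were picked out. Each was picked by the gap to the nearest library divided by the group's range, both taken on log2(FPKM + 1). For normally distributed values chance alone picks about 1 in 20 groups. That rate does not hold where 5 libraries are at 0, since the gap is then always 1.0 of the range. Spleen Y16A-2 supplied 5 of the 19. It was the highest spleen library for the stress and AP-1 genes Atf3 (gap 1.0 of the range, 1.46 FPKM against 0 in the other 5) and Fosb (1.0, 0.585 FPKM against 0), and the lowest for the globins Hbb-b1 (0.68, 31.3 FPKM) and Hbb-b2 (0.779, 3.83 FPKM) and for the transcription factor Runx3 (0.676, 8.04 FPKM). Islet Y16A-2 of the same mouse was the highest islet library for Fosb (0.637, 4.37 FPKM).

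Spleen Y16A-1 was the highest spleen library for the pancreatic genes Reg2 (1.0, 1.03 FPKM), Try4 (0.649, 0.685 FPKM) and Ctrb1 (0.664, 2.10 FPKM), and spleen WT-3 for Try5 (0.678, 1.65 FPKM), all near the floor. Spleen WT-1 was the lowest for Uqcrh (0.681, 158 FPKM), Rack1 (0.833, 122 FPKM) and Btg1 (0.668, 24.6 FPKM). Without mouse WT-1 these 3 genes remained called over the other 5 pairs.

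Among cytokines, Il10 was highest in islet WT-3 (0.708, 10.9 FPKM) and in spleen Y16A-3 (1.0, 1.05 FPKM, the other 5 at 0), and Il21 was above 0 only in WT-3 among spleen libraries (1.0, 0.437 FPKM). Dapl1 was above 0 only in WT-3 among islet libraries (1.0, 8.62 FPKM), and the calprotectin gene S100a8 only in Y16A-3 (1.0, 2.41 FPKM). Il2ra was lowest in islet Y16A-3 (0.633, 0.997 FPKM).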

How the results depend on the processing

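Against 288 pooled calls, 139 were made with no filter, 168 after rescaling without pancreatic genes, 145 with plain empirical Bayes and 163 with the highest transcript per gene. For the 28 T cell genes called over 6 pairs only, the class held 16 with no filter, 18 with plain empirical Bayes and 17 with the highest transcript, but of the 28 themselves only 7, 9 and 11 were still called over the pairs under these settings. Y16A origin had 133 calls, against 61 with no filter and 82 after rescaling, and WT origin 90, against 51 with no filter, 59 after rescaling and 54 with the highest transcript. With no filter 18729 genes were tested, and otherwise the cause was not tested. With 1 mouse left out the counts ran from 176 to 284 (pooled), 19 to 35 (the class), 76 to 153 (Y16A origin), 63 to 101 (WT origin) and 0 to 1 (interaction); an origin left with 2 mice is assumed to vary like the other. Without the replicate block the pooled count was 238, with 226 shared, and the class 28, of which 22 were the same genes; with the block as a random effect they were 281 and 32. The interaction count was 0 in every alternative that kept all mice. Low depth limits genes near the floor, such as Il2, Fosb, Gzmc, Atf3 and Irf4.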
